A study of Mus musculus with 6 samples.

Results

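The genes described here make cholesterol or are controlled by SREBP2, and their transcripts were measured in the small intestine of mice in which tamoxifen had triggered loss of Fitm2. A written list of 28 genes defined the module, and each gene was represented by the brightest of the array probe sets annotated with that gene alone. Of these, 27 were measured, and all 27 were above the intensity filter that left 13042 genes. No probe set was annotated with Acat2 alone in the table used here, so Acat2, which encodes a cytosolic thiolase at the entry to the pathway, was not analysed here. The choice of genes did not use their measured values, although it was made with earlier results of these data known.

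Cholesterol is built from acetyl-CoA through mevalonate, isoprenoid diphosphates, squalene and lanosterol. The transcription factor SREBP2 is held in the endoplasmic reticulum by INSIG proteins when sterols are plentiful. When sterols are scarce, SCAP escorts it to the Golgi, where a pair of proteases release its active part, which switches on nearly every enzyme of the pathway. The small intestine is an organ of cholesterol uptake from the diet as well as of sterol synthesis, and crypt cells and enterocytes both carry the pathway.

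KO mice carried the L/L alleles of Fitm2, a gene for an endoplasmic reticulum protein needed for lipid droplets, together with ROSA26CreERT2, a Cre recombinase that tamoxifen activates and that the ROSA26 locus drives in most cell types. Controls were labelled L/L, which the labels do not spell out, and no Cre was named for them. With Cre named for KO alone, active Cre and loss of Fitm2 cannot be told apart in the values here. Both genotypes received tamoxifen, at 100 µg per g body weight into the peritoneum on days 1, 2 and 3, and whole flushed small intestine was taken on days 2, 3 and 5. Whether mice killed on day 2 or 3 had the later doses is not stated, and neither are age, sex or strain. Each array held RNA pooled from 7, 6 and 7 KO mice and from 6, 6 and 8 L/L mice on days 2, 3 and 5, so every group is a single pool with no replicate.

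Median intensity over all probe sets was 57.8 to 59.8 on the 6 arrays, and arrays correlated at 0.978 to 0.997 over the genes kept. The Fitm2 probe set read 123, 127 and 119.6 in KO pools on days 2, 3 and 5, against 193, 223 and 211 in L/L pools (limma, mean log2 difference -0.76, adjusted p = 0.125); whether it lies in the deleted part is not stated, so it is no measure of how far deletion had gone. Enterocyte markers were present, with 11 of 12 measured and summed intensities of 174778 to 183841 in KO and 174025 to 182847 in L/L. Xist, which marks female cells, read 1090.2, 3030.2 and 1398 in KO against 2433, 3126 and 3052 in L/L. Its log2 difference was -1.16, -0.04 and -1.13 on days 2, 3 and 5. Of Y-linked genes, which mark male cells, Eif2s3y differed by 0.56, -0.25 and 0.45 and Uty by 0.39, -0.28 and 0.34. Kdm5d differed by 0.47, -0.48 and 0.08. Whether the mix of sexes differed between pools was not tested.

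On day 5 most of the 27 transcripts were lower in KO than in L/L intestine, by up to 1.55-fold among the synthesis enzymes (Idi1) and 1.76-fold among the other targets (Rdh11), whereas on day 2 most were slightly higher. The 27 genes had median log2 differences of 0.12, -0.14 and -0.27 on days 2, 3 and 5, beside 0.01, -0.01 and 0.02 over all genes. In number, 22 of 27 were higher in KO on day 2 (background over all genes, 55.5%), 23 were lower on day 3 (background 52.3%) and 22 were lower on day 5 (background 45.9%). The difference was lower on each later day in 20 of the 27, against a background of 22.2%. In all, 4 of the 27 were at least 1.5-fold lower on day 5, namely Rdh11, Tmem97, Stard4 and Idi1 (background 3.1%), none was at least 1.5-fold higher (background 5.19%), and none reached 2-fold higher (background 1.28%) or lower (background 0.882%). Single days have 1 pool per genotype and no test. In bulk tissue, fewer cells of a type and less RNA per cell cannot be told apart.

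No gene of the module passed a test across the days. In the limma fit of KO against L/L over the 3 days 0 of 27 passed (background 0.023%), with adjusted p between 0.381 and 0.988. At an unadjusted p under 0.05 limma gave 3 lower (Rdh11, Stard4 and Tm7sf2; background 4.61%) and 0 higher (background 7.68%). In the limma fit of how the difference changed with day 0 of 27 passed as well (background 1.23%), with adjusted p from 0.0671 to 0.801. At an unadjusted p under 0.05 limma gave 13 of 27 with a difference that became more negative (background 7.87%) and 0 with one that became more positive (background 10.6%). The adjusted count turned on settings of the fit. With a trended prior 5 of the 27 passed among 531 genes in all, with an offset before log2 5 among 549, with a stricter filter 3 among 275 and with arrays centred on the median 2 among 312, against 0 among 160 as fitted. Leaving out any day left the fit of the change with day without a test. A p that misses the threshold does not show that a gene did not differ.

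**Figure D1:**
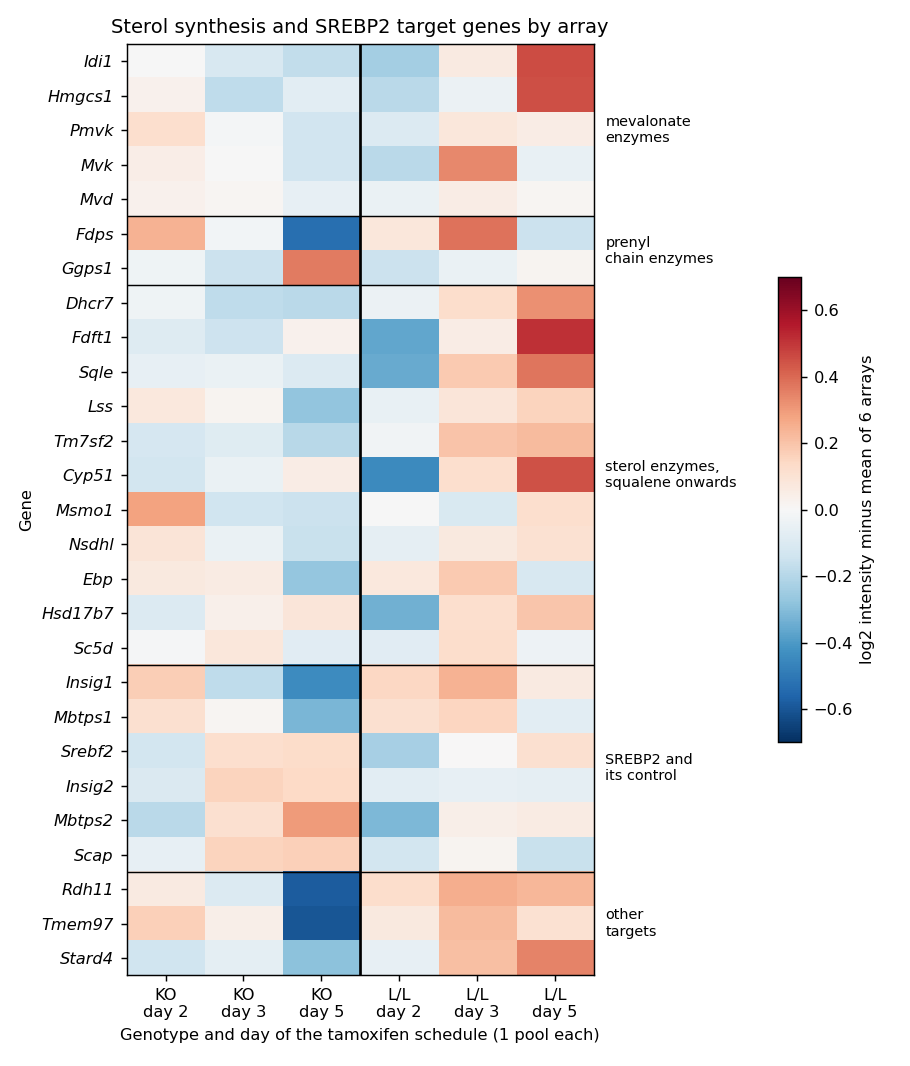
Log2 intensity of each of the 27 genes minus its own mean over the 6 arrays (colour), with KO pools of days 2, 3 and 5 in the left columns and L/L pools in the right columns, 1 pool each. Rows are grouped by role, and the enzymes of the mevalonate and sterol blocks are mostly at or below their mean in KO on day 5 and above it in L/L on day 5.

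**Figure D2:**
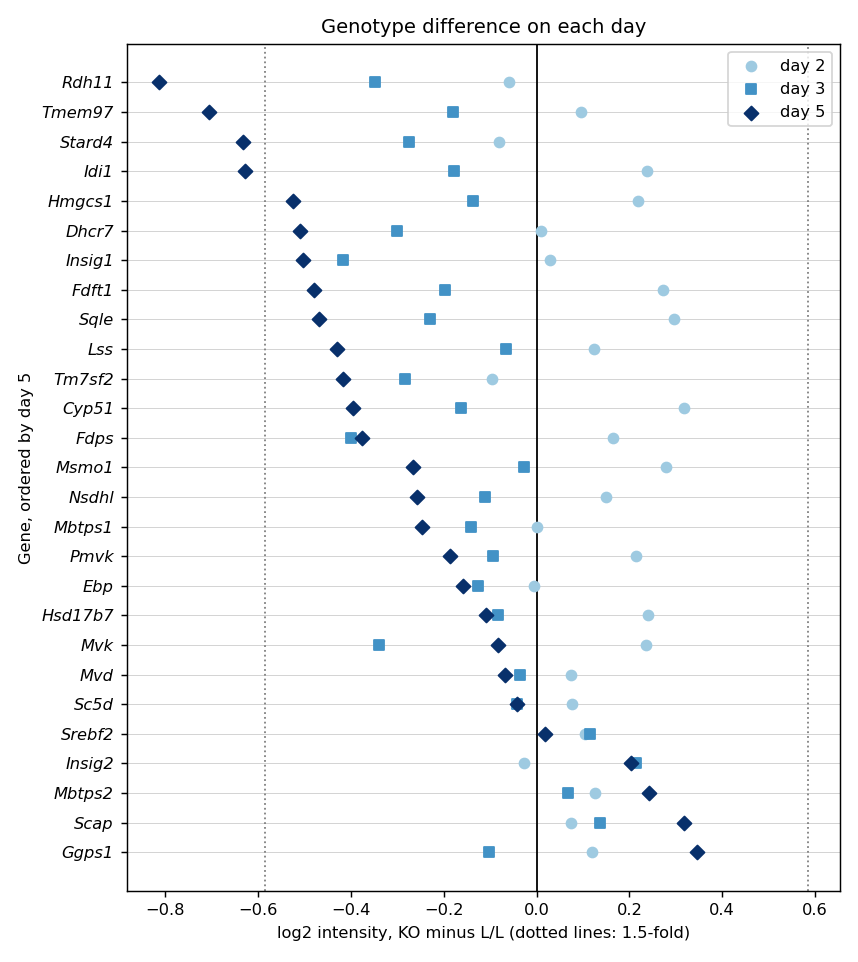
KO minus L/L log2 intensity (x axis) for each gene (y axis) on days 2, 3 and 5, 1 pool per genotype and day, ordered by day 5; dotted lines mark 1.5-fold. Rdh11 lies lowest on day 5 at -0.81 and Ggps1 highest at 0.35.

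Stretches of 250 bases ahead of the annotated start of 6 of the genes follow, from RefSeq on build GRCm38.p6. Hmgcs1, Idi1, Insig1 and Tmem97 are shown because they were lower in KO on day 5, and Srebf2 and Mbtps2 because they were not lower. Capitals mark matches, on either strand, to the sterol-response motif TCACNCCAC, its core CACCCCA, the NF-Y motif CCAAT or the Sp1 motif GGGCGG; the 7-letter core lies inside the longer motif when N is C.
Hmgcs1, chr13:119690101-119690350 (plus strand): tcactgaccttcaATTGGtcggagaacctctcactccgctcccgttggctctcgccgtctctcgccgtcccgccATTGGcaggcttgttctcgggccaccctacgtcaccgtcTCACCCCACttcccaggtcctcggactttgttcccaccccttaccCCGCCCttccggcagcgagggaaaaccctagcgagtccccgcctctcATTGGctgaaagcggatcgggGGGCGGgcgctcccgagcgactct
Idi1, chr13:8885356-8885605 (plus strand): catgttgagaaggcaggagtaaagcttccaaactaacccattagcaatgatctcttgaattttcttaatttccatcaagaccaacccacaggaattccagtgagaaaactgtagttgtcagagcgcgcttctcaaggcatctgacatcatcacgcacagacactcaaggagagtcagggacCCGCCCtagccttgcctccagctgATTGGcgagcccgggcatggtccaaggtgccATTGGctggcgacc
Insig1, chr5:28071162-28071411 (plus strand): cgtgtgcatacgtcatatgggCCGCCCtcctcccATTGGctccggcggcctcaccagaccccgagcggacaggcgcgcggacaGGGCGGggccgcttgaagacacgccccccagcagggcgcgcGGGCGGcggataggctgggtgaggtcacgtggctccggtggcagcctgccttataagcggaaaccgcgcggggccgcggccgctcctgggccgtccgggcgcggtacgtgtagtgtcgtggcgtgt
Tmem97, chr11:78550736-78550985 (minus strand): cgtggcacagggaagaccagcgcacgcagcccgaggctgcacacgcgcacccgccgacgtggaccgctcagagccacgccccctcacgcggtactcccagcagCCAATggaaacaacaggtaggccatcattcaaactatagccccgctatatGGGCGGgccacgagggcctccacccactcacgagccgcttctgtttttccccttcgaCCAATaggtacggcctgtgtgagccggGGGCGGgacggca
Srebf2, chr15:82147019-82147268 (plus strand): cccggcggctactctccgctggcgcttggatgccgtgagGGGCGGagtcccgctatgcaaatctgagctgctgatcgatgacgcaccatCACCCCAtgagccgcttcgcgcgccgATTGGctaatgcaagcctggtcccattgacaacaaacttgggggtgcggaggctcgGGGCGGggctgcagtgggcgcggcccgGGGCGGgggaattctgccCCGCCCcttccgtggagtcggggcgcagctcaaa
Mbtps2, chrX:157598716-157598965 (minus strand): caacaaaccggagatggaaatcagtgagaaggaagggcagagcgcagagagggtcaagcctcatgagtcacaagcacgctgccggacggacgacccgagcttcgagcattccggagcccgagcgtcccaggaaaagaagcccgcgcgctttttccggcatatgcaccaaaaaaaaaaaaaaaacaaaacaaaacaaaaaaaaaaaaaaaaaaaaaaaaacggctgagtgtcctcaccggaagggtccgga

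The table used here held such stretches for 24 of the 28 genes, and the count below covers a gene as soon as any of its listed starts has the motif. CCAAT was present in 20 of 24, against 37.5% of 27025 genes, and GGGCGG in 20 of 24, against 35.4%. The longer sterol motif was found in Hmgcs1 alone (1.22% of the 27025 genes), and the core also in Srebf2 and Acat2 (7.64%). Unlike the backgrounds given elsewhere, the 27025 genes were not limited to genes above the intensity filter. Motif shares among genes above the filter were not counted. Whether the module differs in these motifs from other expressed genes was therefore not tested. A match is only a run of letters, and no match says only that the letters are not in this window.

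The mevalonate enzymes turn acetyl-CoA units into isopentenyl diphosphate, and 5 were measured. Hmgcs1, which encodes the HMG-CoA synthase of the cytosol, had intensities of 3269, 2829.8 and 3034 in KO pools on days 2, 3 and 5, against 2810.1, 3111 and 4368 in L/L pools. Idi1, the isomerase that ends this stretch, had 1080.2, 1001 and 961 in KO, against 916, 1132 and 1487 in L/L. For both genes KO was above L/L on day 2 and below it on days 3 and 5, the ranges of the genotypes overlapped, and the day 5 array of L/L was the highest of the 6. On day 5 Hmgcs1 was 1.44-fold and Idi1 1.55-fold lower in KO, and the log2 difference moved by -0.24 (SE 0.05) and -0.28 (SE 0.05) per day in limma (adjusted p = 0.0898 and 0.072).

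On day 5 the kinases and the decarboxylase between them differed less. Mvk, mevalonate kinase, had 202, 195 and 178 in KO against 172, 247 and 189 in L/L, so that its largest gap lay on day 3, at -0.34. Pmvk, phosphomevalonate kinase, had 271, 247 and 227 in KO against 233, 263 and 259 in L/L. Mvd, mevalonate diphosphate decarboxylase, had 259, 256 and 244 in KO against 245, 262 and 255 in L/L, within 0.08 on the log2 scale on every day. A second Mvd probe set above the filter was less even, with log2 differences of 0.08, -0.39 and -0.35 on days 2, 3 and 5. Each of these genes was higher in KO on day 2 and lower on days 3 and 5, as were 18 of the 27 genes (background 14.9%).

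Fdps and Ggps1 encode the synthases of farnesyl and geranylgeranyl diphosphate, the branch point between sterols and protein prenylation, and they differed in opposite directions on day 5. Fdps had 843, 703 and 494 in KO against 753, 928 and 641 in L/L, 1.30-fold lower in KO on day 5. Ggps1 had 194, 179 and 255 in KO against 179, 192 and 201 in L/L, 1.27-fold higher in KO on day 5. For both the genotypes overlapped; for Fdps both genotypes were lowest on day 5, while the Ggps1 value of KO on day 5 was the highest of its 6. The other Ggps1 probe sets were 0.09 to 0.19 higher in KO on day 5 on the log2 scale.

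Squalene synthase, squalene epoxidase and lanosterol demethylase, encoded by Fdft1, Sqle and Cyp51, carried the steepest change in controls by their brightest probe sets. From day 2 to day 5 in L/L that of Fdft1 changed by 0.87 on the log2 scale, and its other probe sets by 0.41, 0.02 and -0.24. The brightest of Cyp51 changed by 0.89, and the others by 0.92 and -0.02. Fdft1 had 756, 729 and 821 in KO against 626, 835 and 1145 in L/L. Sqle had 683, 689 and 666 in KO against 557, 807 and 922 in L/L. Cyp51 had 527, 558 and 597 in KO against 423, 624 and 785 in L/L. In each of the 3 genes both the lowest and the highest array was L/L, on day 2 and day 5, and the KO arrays lay between them. On day 5 they were 1.39-fold, 1.39-fold and 1.32-fold lower in KO, and the change per day of the log2 difference was -0.23, -0.24 and -0.22 (SE 0.06 each; limma, adjusted p = 0.122, 0.137 and 0.144).

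Lss, lanosterol synthase, had 227, 218 and 178 in KO against 208, 229 and 239.8 in L/L, with day 5 of KO as the lowest array and day 5 of L/L as the highest. Tm7sf2, a sterol reductase that acts just after the demethylase, had 241, 247 and 228 in KO against 257, 301 and 305 in L/L. Every KO array of Tm7sf2 lay below every L/L array, as also for Rdh11 and Stard4 by their brightest probe sets (3 of 27, background 5.66%). By a second Rdh11 probe set the genotypes overlapped, with 245 in KO and 242 in L/L on day 2. For Tm7sf2 the mean log2 difference was -0.27 ± 0.16 (SD over 3 days, limma SE 0.08, adjusted p = 0.381). Dhcr7, the reductase of the final step to cholesterol, had 413, 373 and 371 in KO against 411, 459 and 528 in L/L, level on day 2 and 1.42-fold lower in KO on day 5.

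The enzymes that remove methyl groups and shift double bonds between them differed less on day 5, while on day 2 Msmo1 (0.28) and Hsd17b7 (0.24) differed more than Lss, Tm7sf2 and Dhcr7 on the log2 scale. Msmo1, a methylsterol monooxygenase, had 2351, 1762 and 1746 in KO against 1936, 1796 and 2099 in L/L. Nsdhl, a sterol dehydrogenase, had 579, 527 and 489 in KO against 522, 569.8 and 585 in L/L. Hsd17b7, a ketosteroid reductase, had 389, 427 and 441 in KO against 329, 452 and 475 in L/L, so that its intensity was higher on each later day in both genotypes. Ebp, a sterol isomerase, and Sc5d, a sterol desaturase, differed by -0.16 and -0.04 on day 5, and for Sc5d no day passed 0.08 in size. Over the 11 enzymes from squalene onwards the median log2 difference was 0.15, -0.13 and -0.40 on days 2, 3 and 5, and over the 5 mevalonate enzymes 0.22, -0.14 and -0.19.

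The proteins that control SREBP2 mostly did not share that pattern; Insig1 and, by less, Mbtps1 did. Insig1, an anchor of the SREBP complex that is itself an SREBP target, had 944, 741 and 616 in KO against 925, 990.0 and 874 in L/L. Insig2, the related anchor, had 339, 404 and 400.4 in KO against 345, 348 and 348 in L/L. On day 5 Insig1 was thus 1.42-fold lower and Insig2 1.15-fold higher in KO. The other Insig2 probe sets were 0.10 and 0.30 higher on the log2 scale. From day 2 to day 5 those others changed by 0.64 and 0.10 in L/L, where the brightest changed by 0.01. In KO they changed by 0.49 and 0.30, and the brightest by 0.24. Whether those 2 genes differ from each other beyond error was not tested, with 1 pool per group.

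Scap, the escort, had 421, 489 and 491 in KO against 401, 444 and 394 in L/L, 1.25-fold higher in KO on day 5. Srebf2, which encodes SREBP2, had 349, 413 and 417 in KO against 324, 381 and 411 in L/L. It was higher on day 5 than on day 2 in both genotypes, and its second probe set differed in sign, at -0.28 on day 5. Mbtps2, the Golgi protease that cuts SREBP within the membrane, had 252, 310.4 and 354 in KO against 231, 296 and 299 in L/L, and Mbtps1, the protease that cuts before it, had 676, 629 and 500.3 in KO against 676, 693 and 593 in L/L. By the brightest probe sets, Scap, Srebf2 and Mbtps2 were the genes higher in KO on all 3 days (3 of 27, background 22.1%). Rdh11, Stard4, Tm7sf2 and Ebp were those lower on all 3 (4 of 27, background 17.4%). The second Rdh11 probe set differed by 0.02 on day 2.

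By the brightest probe sets the most negative day 5 differences belonged to 3 targets outside the synthesis pathway, though Stard4 (-0.632) barely passed Idi1 (-0.629). Other probe sets gave another order, with -0.89 for Idi1, -0.51 for Rdh11, and -0.44 and -0.65 for Stard4. Rdh11, a retinol dehydrogenase, had 258, 231 and 165 in KO against 269, 294 and 289.7 in L/L. Tmem97, a membrane protein that takes part in cholesterol trafficking, had 406, 373 and 239 in KO against 380.0, 423 and 389 in L/L. Stard4, a cytosolic sterol carrier, had 1516, 1596 and 1369.8 in KO against 1604, 1930.5 and 2123 in L/L. On day 5 KO was 1.76-fold, 1.63-fold and 1.55-fold lower by these probe sets. In all 3 genes the day 5 array of KO was their lowest of the 6. The other Stard4 probe sets took another course. Of these, 1 read 693, 699 and 730 in KO against 888, 846 and 1143 in L/L. Another read 835, 756 and 650 in KO against 882, 942 and 883 in L/L. Averaged over days, limma gave a log2 difference of -0.41 ± 0.38 for Rdh11 (SD over 3 days; SE 0.15, adjusted p = 0.399), -0.26 ± 0.41 for Tmem97 (SE 0.16, adjusted p = 0.49) and -0.33 ± 0.28 for Stard4 (SE 0.12, adjusted p = 0.394). Without day 5 these averages were -0.20, -0.042 and -0.18. The change per day was -0.25, -0.27 and -0.18 (SE 0.05 each; adjusted p = 0.0785, 0.0671 and 0.127).

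**Figure D3:**
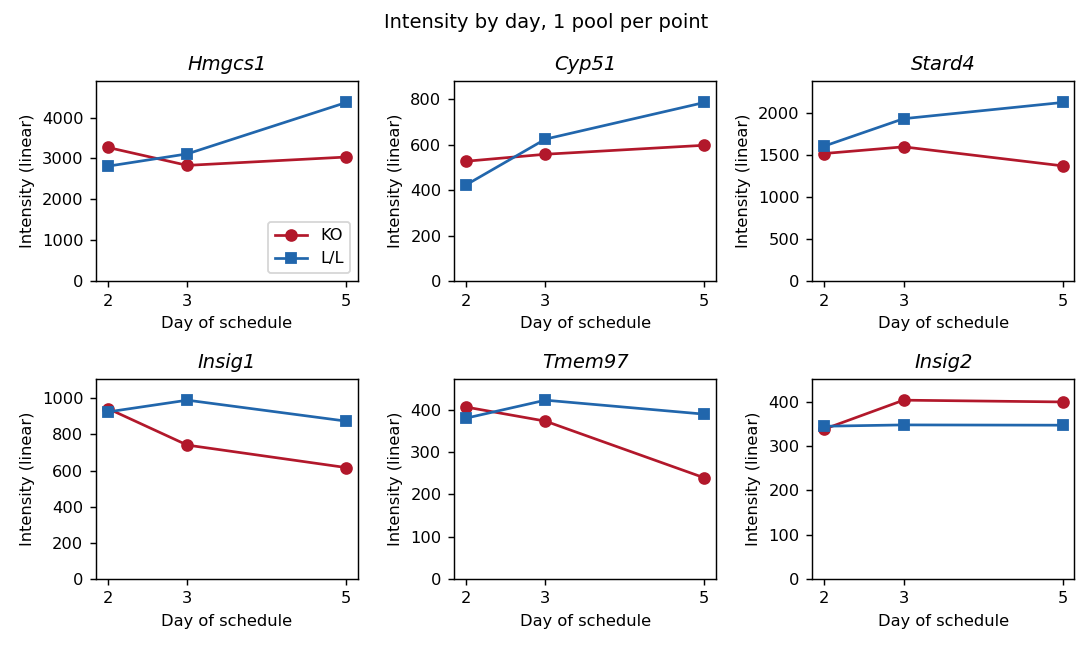
Linear intensity (y axis, from 0) on days 2, 3 and 5 (x axis) for 6 genes, with KO in red circles and L/L in blue squares, 1 pool per point. Each gene is shown by its brightest probe set, and other probe sets of Stard4 and Insig2 took another course. KO is at its lowest on day 5 for Insig1, Tmem97 and Stard4. L/L is at its highest on day 5 for Hmgcs1, Cyp51 and Stard4, and Insig2 is level in L/L.

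Each genotype was also followed over time, as a description with no test. In KO intestine Fdps, Tmem97, Rdh11 and Insig1 were 1.71-fold, 1.70-fold, 1.56-fold and 1.53-fold lower on day 5 than on day 2 (4 of 27 at 1.5-fold or more; background 3.63%), and none of the 27 was 1.5-fold higher (background 4.63%). In L/L these 4 stood at 0.85-fold, 1.02-fold, 1.08-fold and 0.94-fold of their day 2 value. Cyp51, Fdft1, Sqle, Idi1 and Hmgcs1 stood in KO at 1.13-fold, 1.09-fold, 0.97-fold, 0.89-fold and 0.93-fold of their day 2 value, and in L/L at 1.86-fold, 1.83-fold, 1.66-fold, 1.62-fold and 1.55-fold. Those 5 were the genes of the module at least 1.5-fold higher in L/L (background 1.15%), and none was 1.5-fold lower there (background 1.77%). Each set was picked by its size in 1 genotype, which leaves nothing to read from its smaller size in the other.

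From day 2 to day 3, 10 of 27 genes were higher in KO (background 54.2%) and 26 of 27 in L/L (background 58.2%), Msmo1 being the other. From day 3 to day 5, 8 of 27 were higher in KO (background 47.4%) and 15 in L/L (background 42.1%). Tmem97 alone was 1.5-fold lower in KO on day 5 than on day 3 (1 of 27; background 2.55%), and none was 1.5-fold higher in L/L on day 3 than on day 2 (background 0.882%). Over the whole interval 15 of 27 were lower in KO and higher in L/L (background 16.5%), Hmgcs1, Idi1, Sqle, Rdh11 and Tmem97 among them, with a median log2 change over the 27 of -0.15 in KO and 0.16 in L/L. These changes share their arrays with the daily genotype differences and are not separate evidence. The median absolute log2 change over all genes was 0.159 in KO and 0.135 in L/L from day 2 to day 5.

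**Figure D4:**
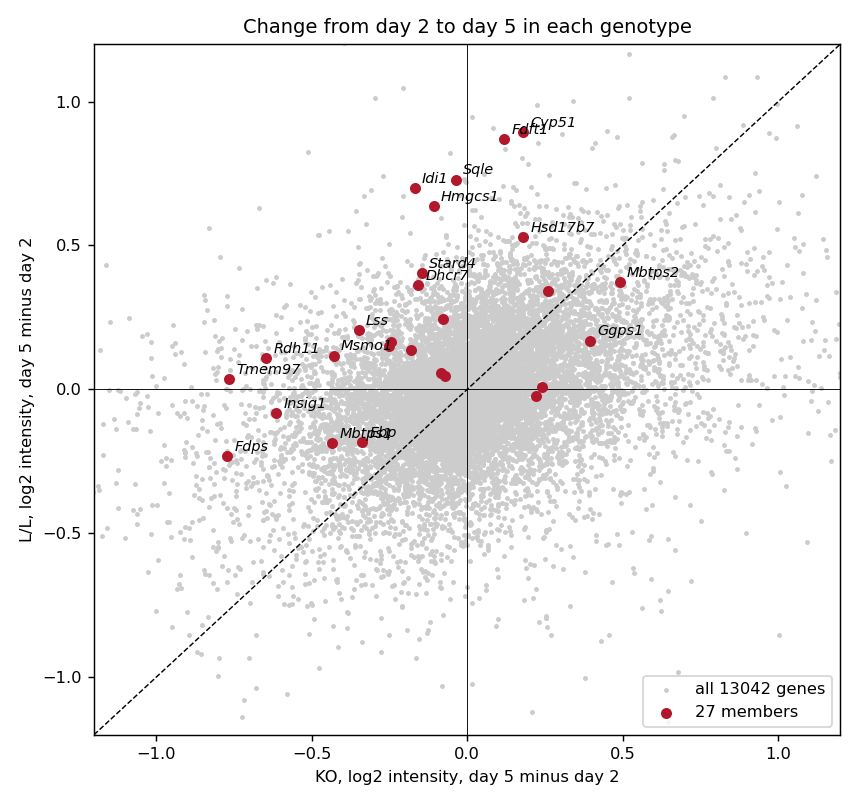
Log2 change from day 2 to day 5 in KO (x axis) and in L/L (y axis) for the 27 genes (red) over all 13042 genes (grey; genes beyond the axis limits are not drawn), with the dashed line at equal change. Each gene is shown by its brightest probe set. Fdps and Tmem97 lie farthest left on the KO axis, and Cyp51 and Fdft1 lie highest on the L/L axis. Insig2, Mbtps2, Scap and Ggps1 lie below the dashed line. Another Insig2 probe set, not drawn, changed by 0.49 in KO and 0.64 in L/L.

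Probe sets of the same gene gave a check within the arrays. The 27 genes had 60 probe sets annotated with them alone, of which 57 were above the filter, and 16 genes had at least 1 further probe set there. Of those 30 further probe sets, 26 had the sign of the brightest one on day 5, and the share over all genes was not counted. The exceptions were 1 dim probe set each of Fdft1 (0.02) and Lss (0.13), 1 of Hsd17b7 (0.13) and the second of Srebf2. All 4 further Hmgcs1 probe sets were lower in KO on day 5, at -0.47, -0.55, -0.72 and, in a dim one, -0.91. The dim one had intensities of 25.1 to 86.5, around the filter. The further probe set of Idi1 read -0.89. Lss and Sc5d were uneven. The brightest Lss probe set stood at -0.43 and others at 0.13 and -0.71. For Sc5d the brightest stood at -0.04 and others at -0.13 and -0.67.

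**Figure D5:**
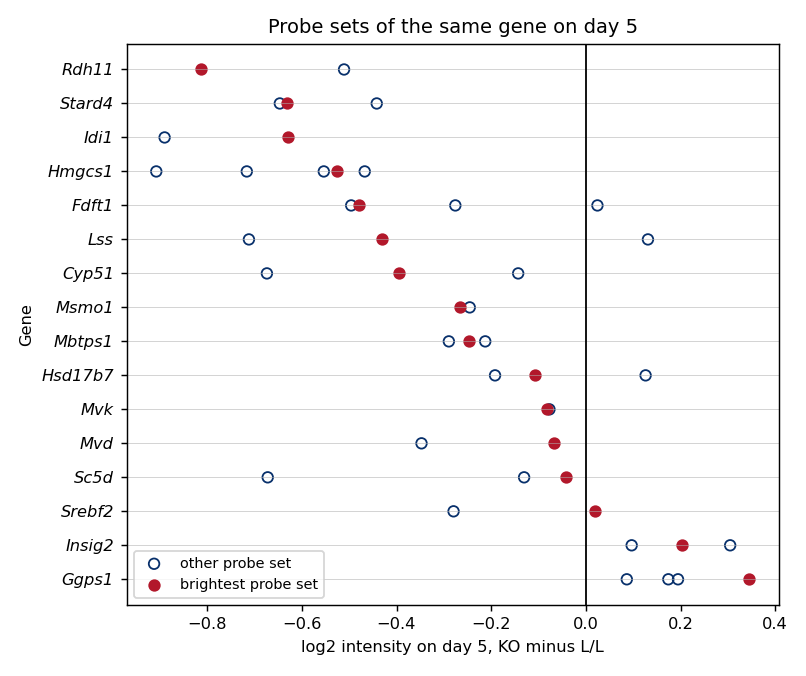
KO minus L/L log2 intensity on day 5 (x axis) for the 16 genes with more than 1 probe set above the filter (y axis), with the brightest probe set filled and the others open. The Hmgcs1, Idi1, Stard4 and Rdh11 probe sets all lie left of 0, and those of Insig2 and Ggps1 right of 0.

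Neighbouring pathways were read from lists that were also chosen with earlier results known. None of their 57 measured genes passed limma over the 3 days or for the change with day, in either direction. Among 14 SREBP1 and fatty acid synthesis genes the median log2 difference was 0.02, -0.13 and -0.19 on days 2, 3 and 5. Fads2, a fatty acid desaturase, had 354, 294 and 159 in KO against 328, 407 and 327 in L/L, and Acss2, an acetyl-CoA synthetase, 217, 192 and 109 in KO against 231, 246 and 219 in L/L. Both were over 2-fold lower in KO on day 5 (log2 -1.04 and -1.01), and their change with day narrowly missed the threshold (limma, adjusted p = 0.0508 and 0.0519). Me1, malic enzyme, differed by 0.11, -0.81 and -0.82.

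The isoprenoid branch, with 13 genes for dolichol, ubiquinone and protein prenylation, had medians of 0.04, -0.03 and 0.11, and Pdss2 (-0.26), Rabggta (0.22) and Dolpp1 (0.22) were examples on day 5. The sterol efflux and LXR target list of 7 genes had medians of -0.05, 0.01 and -0.03. Within it Abca1, a cholesterol exporter, had 1365, 1999 and 2589 in KO against 1395, 1596 and 1723 in L/L, a log2 difference of 0.59 on day 5, and Abcg1 differed by 0.51. Ch25h, which makes an oxysterol that restrains SREBP processing, had 55.6, 70.8 and 94.9 in KO against 53.3, 54.2 and 50.3 in L/L (change with day, limma adjusted p = 0.0614). Its list of 5 genes had medians of 0.12, 0.16 and 0.18, and held Lbr, a sterol reductase of the nuclear envelope, at 0.15, -0.44 and -0.78.

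Among 9 genes of cholesterol uptake, transport and esterification the medians were 0.00, -0.03 and 0.11, and Scarb1, a lipoprotein receptor, had 165, 156 and 196 in KO against 194, 168 and 109 in L/L (change with day, limma adjusted p = 0.0535). Among 9 genes of degradation and sensing around INSIG the medians were 0.03, -0.06 and 0.04. Rnf145, a ubiquitin ligase, had the largest difference of that list on day 5, at -0.45.

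Markers of other cell types also differed over the same days. Crypt proliferation genes, 11 measured of 12, had medians of 0.08, 0.04 and -0.33 on days 2, 3 and 5 (8 of 11 lower in KO on day 5; background 45.9%), with summed intensities of 6202 to 8232 in KO and 7620 to 8627 in L/L. Myeloid genes (7 of 7 measured) had medians of 0.14, 0.38 and 1.02, with sums of 3394 to 5094 in KO and 2386 to 3118 in L/L, and fibroblast genes (7 of 7) -0.02, 0.15 and 0.48, with sums of 11807 to 17799 in KO and 11101 to 12964 in L/L. Circadian clock genes (10 of 10) had medians of -0.02, -0.17 and -0.11, with sums of 6561 to 7036 in KO and 7153 to 7623 in L/L. Enterocyte medians were -0.01, 0.01 and 0.04. Some markers passed limma for the change with day of the KO minus L/L difference. It became more positive for the enteroendocrine genes Chga, Chgb, Gcg and Gip (4 of 6, background 0.644%, limma adjusted p from 0.0454 to 0.0469). So it did for the myeloid genes Lyz2 and Cd68 (2 of 7, limma adjusted p = 0.0373 and 0.0454). For the mitotic cyclin Ccnb2 it became more negative (1 of 11 crypt genes, background 0.583%, limma adjusted p = 0.0454). In each gene with a more positive difference, L/L was lower on day 5 than on day 2. Day 5 stood at 0.49-fold (Cd68) to 0.82-fold (Lyz2) of day 2 in L/L, and at 1.01-fold (Cd68) to 2.01-fold (Lyz2) in KO.

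Medians on days 2, 3 and 5 were 0.26, 0.39 and 1.03 for Paneth genes (4 of 6 measured), 0.00, 0.33 and 1.02 for enteroendocrine genes and 0.29, 0.41 and 0.09 for fasting and glucocorticoid response genes (7 of 8 higher in KO on day 2 and on day 3; background 55.5% and 47.5%). They were 0.07, 0.32 and 0.51 for endothelial, 0.01, -0.06 and 0.23 for smooth muscle, 0.00, 0.24 and 0.57 for adipocyte and 0.03, 0.28 and 0.09 for goblet genes. They were -0.06, 0.03 and -0.14 for T cell and 0.01, -0.29 and 0.01 for B and plasma cell genes. The hepatocyte list (2 of 6 measured) had -0.09, 0.23 and 0.32, and the pancreatic acinar list (4 of 7) had -0.18, 0.40 and 0.14. A marker counts as measured when its mean passed the intensity filter, which does not by itself show that the cell type was present. Cpa1 of the acinar list read 29.2 to 52.1, around the filter of 38.9. The part of these markers and of the Xist and Y-linked differences in the sterol values was not tested. Leaving out the 3 X-linked genes Nsdhl, Ebp and Mbtps2, a step added after the data were seen, gave medians of 0.11, -0.15 and -0.39.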

How the data were processed

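The data were 6 Affymetrix 3' expression arrays, 1 per genotype and day, each hybridised with biotin-labelled RNA pooled from 6 to 8 mice, per the labels. The deposited values are linear intensities, 1 per probe set; Partek and RMA are named, without roles or versions, per the submitters' processing notes. No genome build is given in the sources used here. Quartiles were nearly equal between arrays, and no further normalization was applied before log2 was taken, with no pseudocount. Of 45101 probe sets, 64 were controls, 34945 had 1 gene in the platform annotation, 932 had several and 9160 were not listed; those with 1 gene were used. Symbols of 34741 were updated through gene ID to assembly GRCm38.p6.

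The brightest probe set by mean log2 stood for each of 18193 genes, and 13042 genes passed a filter at the 40th percentile of mean log2 across non-control probe sets (5.28 on the log2 scale, or 38.9 in intensity). Differences were tested with limma 3.58.1 in R 4.3.3 (lmFit, eBayes, two-sided), with genotype tested beside a factor for day (2 residual and 3.03 prior degrees of freedom), or with genotype by centred day (1 residual and 4.76 prior), adjusted by Benjamini-Hochberg over all genes at 0.05. These p-values measure only how the genotype difference varied over 3 days of 1 pool each. The code was also tested on simulated data. Single days and changes within a genotype have no test and were counted at 1.5-fold and 2-fold beside the share over all genes. Promoter stretches came from RefSeq. The number of arrays limits the precision.

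The members and all lists were chosen with earlier results of these data known. Every member is named; from each pathway list the text draws on the 3 largest mean differences and the 3 largest changes from day 2 to day 5. Alternatives tried were other probe set choices, filters, an offset, scalings, priors, day codings and leaving out each day.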

Additional observations from a re-analysis of the deposited data

Results flagged for a closer look

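The median change from day 2 to day 5 over the 27 genes had opposite signs in the genotypes, at -0.147 in KO and 0.164 in L/L on the log2 scale. With 1 pool per genotype and day, this difference between the genotypes was not tested as a median. For single genes the change of the difference with day was tested, and none of the 27 passed limma after adjustment (13 had an unadjusted p under 0.05).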

How the results depend on the processing

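Over the 3 days limma called 3 genes of all, and 1 with the mean of all probe sets, 1 without day 2, 0 without day 3 and 6 with day as a linear number; 0 of the 27 passed in any of these. For the change with day limma called 160 genes and 0 of the 27. This became 0 genes with no filter, 275 with the filter at the 60th percentile (3 of the 27), 549 with an offset of 32 before log2 (5 of the 27), 312 with arrays centred on the median (2 of the 27), 531 with a trended prior (5 of the 27) and 63 with day as rank; the causes were not tested. The median change of the difference per day over the 27 was -0.13, and -0.053 without day 2, -0.28 without day 5 and -0.20 per rank step. Without a day this fit has no residual degrees of freedom and no test. With the offset, 0 of the 27 were 1.5-fold lower in KO on day 5 than on day 3 (1 otherwise), and after centring 1 was 1.5-fold higher in L/L on day 3 than on day 2 (0 otherwise).

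Signs of some mean differences turned, none of them called. With the mean of all probe sets Msmo1 was 0.024 and Srebf2 -0.044, and the change per day of Scap was -3.9e-05. Without probe sets that can bind several transcripts Msmo1 was 0.053, and the change per day of Hsd17b7 was 0.012. With cyclic loess Msmo1 was 0.0093 and Sc5d 0.011. Without day 2 Hsd17b7 was -0.095. Without day 3 Msmo1 was 0.0071, Pmvk 0.014, Mvk 0.077, Mvd 0.0032 and Sc5d 0.016. Without day 5 the median over the 27 was 0.019, against -0.10 over all days, and Idi1 was 0.030, Hmgcs1 0.041, Fdft1 0.037, Sqle 0.033, Lss 0.028, Cyp51 0.077, Msmo1 0.13, Nsdhl 0.019, Pmvk 0.061, Mvd 0.019 and Sc5d 0.017. The change per day turned sign without day 2 for Mvk (0.13), Fdps (0.012) and Insig2 (-0.0058), and without day 5 for Ggps1 (-0.22), Mbtps2 (-0.058) and Srebf2 (0.012). The labels give no replicate numbers, and the fit over the 3 days pairs pools by day. Having 1 array per group limits every value here, and intensities near the filter are the least certain.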
